A study of Mus musculus with 16 samples.

Results

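The comparison set bone marrow-derived macrophages that had received both dexamethasone and lipopolysaccharide (LPS) against resting cells of the same experiment. It used 4 of the 16 arrays of the series, chosen by their labels: 2 of cells given ethanol overnight and no LPS, called unstimulated here, and 2 of cells given 1 µM dexamethasone (Dex) overnight and then LPS for 6 h. All cells were primary macrophages, differentiated from marrow of 10-week-old male wildtype c57Bl6/J mice, and ethanol was the vehicle of Dex. The other 4 arrays of the 6 h experiment, 2 with Dex alone and 2 with ethanol and LPS for 6 h, are used beside them to place each level and to share the estimate of the spread. Replicate arrays are described as technical, so the p-values below measure how arrays varied and may say nothing of variation among mice or cultures. No sample of the separate 3 h experiment enters a comparison.

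LPS, a component of the outer membrane of Gram-negative bacteria, is sensed by Toll-like receptor 4 and switches on NF-kB, AP-1 and, through the adaptor TRIF, the interferon regulatory factors that start the type I interferon loop. Dex is a synthetic glucocorticoid that binds the glucocorticoid receptor, which induces genes such as Fkbp5 and Tsc22d3 directly and represses part of the LPS programme. Cells with both agents therefore carry an LPS response and a glucocorticoid response at once, and the comparison with resting cells measures their net state.

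Of 7796 genes with a probe above background in at least 1 group, 540 were higher (6.93%) and 529 lower (6.79%) with Dex plus LPS than in unstimulated cells. A gene was called at a Benjamini-Hochberg adjusted p under 0.05 in limma and a change of at least 2-fold. Levels are normalized log2 intensities, and differences are log2 of Dex plus LPS over unstimulated unless stated. Calls and rankings used these levels even where a group was below background, so for some called genes a 2-fold change is not certain. Across all genes the median difference was -0.04. Arrays of the same group correlated at 0.984 to 0.995, the Dex plus LPS arrays correlated with the LPS arrays at 0.978 to 0.979, and with the unstimulated arrays at 0.941 to 0.944. Between 10407 and 11281 of the 25697 probes were detected per array. With 2 arrays against 2, an exact two-sided permutation test of 1 gene cannot go below p = 0.333, so all calls rest on the spread pooled by limma. When arrays were only scaled to a common median, the median of all genes moved by 0.29 upwards, and the calls became 968 higher and 303 lower (76.2% higher, against 50.5% with quantile normalization).

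The unnormalized signals of the macrophage markers summed to 144168 to 171799 on the unstimulated arrays and 197729 to 215205 with Dex plus LPS. The brightest members weigh most in such a sum. Adgre1, which encodes the surface marker F4/80, lay at 15.35 and 15.27 on the unstimulated arrays and at 15.28 and 15.44 with Dex plus LPS, and the lysozyme gene Lyz2 was saturated throughout. Of 8 macrophage markers tested, Cd14 rose, Fcgr1 and Cd300a fell and 5 did not pass. None of 6 T and NK cell, 5 dendritic cell, 5 mast cell and basophil or 5 erythroid markers gave a detected, named probe. Of 8 neutrophil and precursor markers tested, S100a8 stood near 15 in both groups, and Ltf and Prtn3 fell. The call of Prtn3 was lost when arrays were only scaled to a common median. The summed signal of the list was 44342.5 to 60257.6 on the unstimulated arrays and 47705.5 to 52031.1 with Dex plus LPS. Of 5 B cell markers 1 was tested, Cd79b, with a difference of -0.77 that did not pass. The stromal gene Dcn, at 7.47 and 6.41 in unstimulated cells and at 8.26 and 8.19 with Dex plus LPS, was the one member of its list detected. Its call was lost without unstimulated array 2 (0.76), Dex plus LPS array 1 (1.25) or Dex plus LPS array 2 (1.32). The part of other cells in the results was not tested, and fewer cells of a type cannot be told apart from less RNA per cell.

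One deposited table goes against the others. The 6 h table deposited as cubic spline normalized carries the same array names as the unnormalized 6 h table, yet its columns had a rank correlation of only 0.885 to 0.923 with the same-named columns over 11320 probes. For 7 of its 8 columns another array of the unnormalized table ranked closer. Fkbp5, a co-chaperone that glucocorticoids induce, had signals of 414 and 464 on the unstimulated and 426 and 414 on the Dex arrays of the spline table. Fkbp5 levels from the unnormalized table, on a log2 scale after background correction and quantile normalization, were 7.0 and 7.21 on the unstimulated arrays. They were 11.39 and 11.34 on the Dex arrays. The authors' processed values, in contrast, equalled log2 of the unnormalized signals up to 1 constant per array and 1 per probe, with residuals of at most 0.000129 (SD). Results below come from the unnormalized table, and values from the spline table are given for lists and for some of the genes named. With the spline values, 164 genes were higher and 33 lower with Dex plus LPS.

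**Figure D1:**
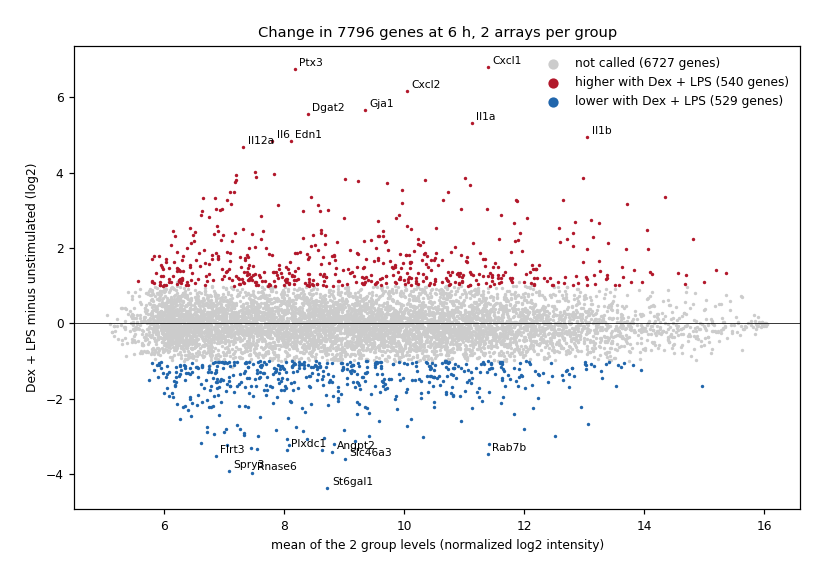
Log2 difference of Dex plus LPS minus unstimulated (vertical axis) against the mean log2 intensity of the 2 groups (horizontal axis), 1 point per gene. The 540 genes called higher reach 6.81 (Cxcl1), and the 529 called lower reach -4.37 (St6gal1).

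The 5 promoter windows printed here belong to genes whose levels frame the comparison: 3 of the 15 largest rises, the interferon-inducible gene with the largest rise, and interferon beta itself, which was near its resting level. Each is the 150 bases before the annotated gene start (RefSeq, GRCm38.p6), with matches to an NF-kB-like motif (GGG, any 3 bases, then TTCC) on either strand in capitals. Overlapping matches on the 2 strands run together.
Cxcl1: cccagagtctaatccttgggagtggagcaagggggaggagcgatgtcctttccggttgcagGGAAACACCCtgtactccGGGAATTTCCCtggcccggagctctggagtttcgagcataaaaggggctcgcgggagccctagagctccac
Cxcl2: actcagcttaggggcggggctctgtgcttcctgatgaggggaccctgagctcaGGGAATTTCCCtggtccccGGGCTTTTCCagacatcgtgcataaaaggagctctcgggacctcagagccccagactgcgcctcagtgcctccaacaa
Il6: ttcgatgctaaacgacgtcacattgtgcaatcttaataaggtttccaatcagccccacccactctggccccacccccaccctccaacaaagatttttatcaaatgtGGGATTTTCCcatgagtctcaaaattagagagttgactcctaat
Gbp5: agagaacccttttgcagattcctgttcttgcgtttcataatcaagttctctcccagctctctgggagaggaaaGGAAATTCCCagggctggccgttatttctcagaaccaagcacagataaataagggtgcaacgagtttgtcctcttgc
Ifnb1: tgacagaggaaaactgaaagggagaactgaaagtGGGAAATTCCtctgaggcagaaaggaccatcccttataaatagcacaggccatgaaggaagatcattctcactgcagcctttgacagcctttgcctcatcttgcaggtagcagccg

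The windows lie at chr5:90891095-90891244 (Cxcl1, plus strand), chr5:90903749-90903898 (Cxcl2, plus strand), chr5:30012964-30013113 (Il6, plus strand), chr3:142496784-142496933 (Gbp5, plus strand) and chr4:88522795-88522944 (Ifnb1, minus strand). All are upstream of the first exon in that annotation. The motif was present in 5.56% of 32851 mouse promoters of 300 bases, which run from 250 bases before to 50 after a start. Of the 15 largest rises 12 had a promoter in the table and 3 of these held the motif. Of the 15 largest falls 10 had one and 0 held it. Of 8 genes that LPS alone raised and that lay nearest to rest with both agents, 8 had one and 1 held it. Another motif, like the interferon-stimulated response element (TTTC, any 2 bases, then TTTC), was present in 3.44% of promoters. It was held by 1 of the 12, 1 of the 10 and 2 of the 8. A match describes the letters only. The windows were chosen after the search, and each holds a match to the NF-kB-like motif.

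The 15 largest rises, ranked on levels that may lie below background at rest, were led by Cxcl1, Ptx3, Cxcl2, Gja1 and Dgat2. Cxcl1, a neutrophil chemokine, lay at 8.48 and 7.51 on the unstimulated arrays and at 14.89 and 14.72 with Dex plus LPS. Its difference was 6.81 ± 0.30 (SE, n = 2 arrays per group, adjusted p = 4e-07), and with LPS alone its level was 15.12 and 15.19. Cxcl2, with the same attractant role, rose from 6.72 and 7.20 to 12.86 and 13.42, by 6.17 ± 0.23 (adjusted p = 1.39e-07). Only called genes whose arrays did not overlap between the groups were ranked, so the lack of overlap was set by the choice.

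Ptx3, a long pentraxin that binds microbes in the extracellular fluid, was not above background on any unstimulated array and lay at 11.49 and 11.62 with Dex plus LPS, at least 42.3-fold higher (adjusted p = 1.93e-08). Bounds of this kind set the dim group at the lowest level called above background on each array, or at the probe's own level where that is higher. Dgat2, an enzyme of triglyceride synthesis, was likewise below background in unstimulated cells and lay at 11.15 and 11.20 with both agents, at least 32.5-fold higher (adjusted p = 6.73e-07). Gja1, which encodes the gap junction protein connexin 43, rose from 6.26 and 6.77 to 12.18 on each array, by 5.67 ± 0.21 (adjusted p = 1.39e-07). Edn1, which encodes the vasoconstrictor endothelin 1, rose from 5.19 and 6.19 to 10.42 and 10.65, by 4.85 ± 0.29 (adjusted p = 1.85e-06).

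Il1a rose from 8.60 and 8.33 to 13.81 and 13.77, by 5.32 ± 0.27. Il1b, the other agonist of the interleukin 1 receptor, rose from 10.62 and 10.52 to 15.55 and 15.49, a 30.9-fold change. Both lay lower on the arrays with Dex alone than in unstimulated cells, Il1a at 6.13 and 7.04 and Il1b at 8.92 and 8.88. The cytokine subunit genes Il12a and Il27 and the cytokine Il6 were below background in unstimulated cells and at least 11.3-fold, 10.0-fold and 16.8-fold higher with both agents. The rest of the 15 were Dusp2, Phlda1, Trem1 and Ptges, with levels between 8.97 and 13.05 on the Dex plus LPS arrays. With the spline values, 11 of the 15 were called higher, Dgat2 and Il12a differed there by 0.42 and 0.73, and Ptx3 differed by 0.10 with signals of 131 and 138 in unstimulated cells and 154 and 135 with both agents.

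Falls reached 20.6-fold and included enzymes, transporters and regulators of diverse function. St6gal1, a Golgi sialyltransferase, dropped from 10.84 and 10.97 on the unstimulated arrays to 6.43 and 6.64 with Dex plus LPS. The difference was -4.37 ± 0.18 (SE, n = 2 arrays per group, adjusted p = 2.69e-07), and its level with Dex alone was 10.98 and 11.03. The Dex arrays stood with the unstimulated ones. Slc46a3, a lysosomal transporter gene, fell from 10.88 and 10.74 to 7.18 and 7.25, a difference of -3.59. Rab7b, which encodes a small GTPase of late endosomes, dropped from 13.08 and 13.18 to 9.64 and 9.67, an 11.1-fold change.

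Several of the 15 largest falls were also low with Dex alone. Prss46, a serine protease gene, lay at 10.42 and 10.45 in unstimulated cells, at 8.29 and 8.65 with Dex, at 8.35 and 7.98 with LPS and at 7.25 and 7.22 with both. Angpt2, which encodes the vascular ligand angiopoietin 2, lay at 10.27 and 10.73 at rest, at 9.04 and 9.37 with Dex, at 7.74 and 7.41 with LPS and at 7.14 and 7.05 with both. Dbp, a clock-controlled transcription factor gene, fell from 9.39 and 9.06 to 5.51 and 6.25, a difference of -3.34. Pparg, the nuclear receptor of lipid metabolism, fell from 8.47 and 8.86 to a level below background, at least 6.30-fold lower (adjusted p = 4.57e-06). The others were Rnase6, Spry3, Flrt3, Plxdc1, Gask1b, Tmem154, Zdhhc14 and Zranb3. Of these 15, 1 was called lower with the spline values, where Pparg differed by -0.35, and Flrt3 differed by 2.35 in the opposite direction, and St6gal1 differed by -0.23.

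**Figure D2:**
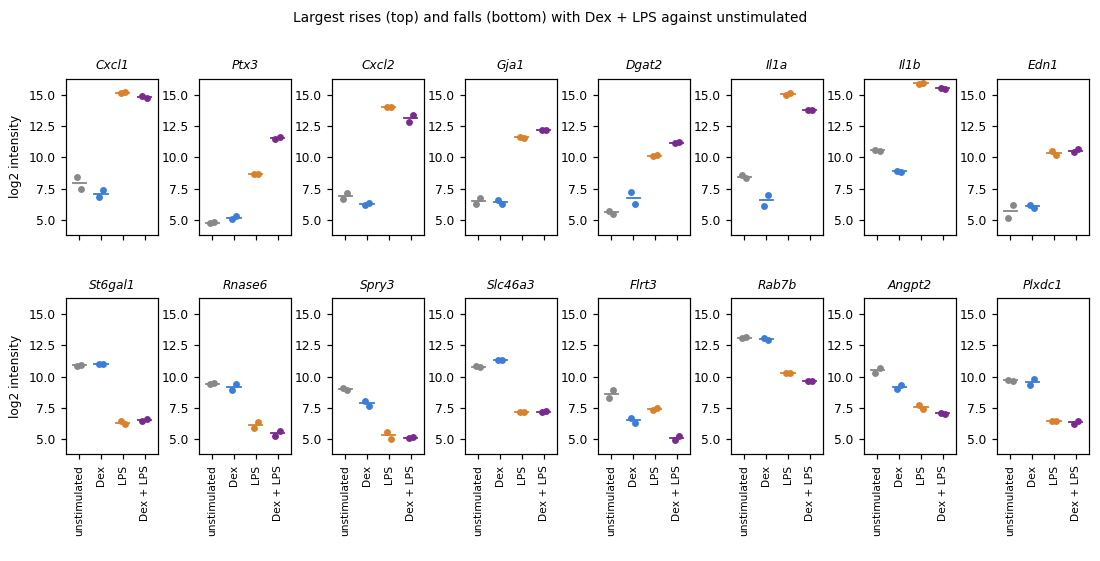
Normalized log2 intensity on each of the 8 arrays of the 6 h experiment (points) with group means (bars) for the 8 largest rises (top) and falls (bottom). Ptx3 stands at 11.49 and 11.62 with Dex plus LPS and at 8.67 on each LPS array, while St6gal1 stands between 6.21 and 6.64 on the 4 arrays with LPS.

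Of 19 inflammatory cytokines tested, 11 rose (57.9%, against 6.93% of all genes), 0 fell (against 6.79%) and 8 did not pass. The median difference was 1.13 against -0.04 for all genes. Tnf, the early cytokine of the LPS response, rose from 11 and 11.09 to 14.87 and 14.94, by 3.86 ± 0.19 (adjusted p = 7.08e-07), and its LPS arrays were saturated. Csf1, the growth factor of macrophages, was at least 5.35-fold higher. Of members that did not pass, Osm, an interleukin 6 family cytokine, differed by -0.27, Il15, which supports NK cells, by 0.50 and Il18, an inflammasome substrate, by 0.12. Il10, the main anti-inflammatory cytokine of macrophages, was not above background in either group and lay at 7.01 and 7.13 with LPS alone. Csf3 was called with 1 of its probes, with a difference of 1.13, and its brighter probe over the 8 arrays differed by -0.39 without passing. Its call was also lost without unstimulated array 1 (1.10) or Dex plus LPS array 2 (1.02), and that of Tnfsf15, at least 1.58-fold higher, without unstimulated array 2 or Dex plus LPS array 2. With no background correction, and likewise with the spline values, 8 cytokines rose.

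Of 16 chemokines tested, 5 rose (31.2%, against 6.93% of all genes), 0 fell (against 6.79%) and 11 did not pass. The median was 0.17. Beside Cxcl1 and Cxcl2, Ccl3, a monocyte attractant saturated with both agents, was at least 10.2-fold higher, and Ccl9 at least 2.66-fold. Cxcl10, an interferon-inducible T cell attractant, rose from 12.29 and 11.96 to 15.26 and 15.32, by 3.16 ± 0.26. Ccl2, the main monocyte chemokine, lay at 11.60 and 11.34 in unstimulated cells and at 11.57 and 11.73 with Dex plus LPS, against 13.78 on each LPS array. Ccl7, a related monocyte chemokine, lay at 12.96 and 13.31 at rest and at 12.81 and 12.61 with both agents, against 14.76 and 14.91 with LPS. Ccl5, a T cell attractant, lay at 15.82 and 15.79 at rest and was saturated in the other 3 groups. The groups of the comparison overlapped for Ccl2 and not for Ccl7, whose difference of -0.43 did not pass. With the spline values 6 chemokines rose.

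Among 8 chemokine and chemoattractant receptors 1 rose and 1 fell (12.5% each, against 6.93% and 6.79% of all genes). A single gene in each direction is too few to describe the list. Ccrl2, an atypical chemerin receptor, rose from 9.28 and 9.59 to 12.43 and 12.52, by 3.04 ± 0.20. Cxcr4, the receptor of Cxcl12, fell from 9.22 and 9.34 to 6.20 and 6.72, a difference of -2.82. Of 23 cytokine and growth factor receptors 6 rose (26.1%, against 6.93% of all genes) and 2 fell (8.7%, against 6.79%). Their median of -0.15 became 0.17 when arrays were scaled to their medians. The call of Il17ra was lost without unstimulated array 2 (0.87), and that of Ifnar2 without unstimulated array 1 (0.78) or Dex plus LPS array 1 (0.98). Trem1, which amplifies Toll-like receptor signals, was at least 8.05-fold higher, and the TNF receptor gene Tnfrsf1b rose by 1.80 ± 0.27. Il1r2, the decoy receptor of interleukin 1, was below background at rest and lay at 7.06 and 7.23 with both agents, at least 1.99-fold higher. Il1rn, the secreted receptor antagonist of interleukin 1 that the list also held, fell from 12.98 and 12.89 to 11.14 and 11.48, a difference of -1.63. Trem2, a lipid-sensing receptor, fell by 1.46 on the log2 scale. Of the 23, 2 rose and 0 fell with the spline values, where Il1r2 differed by -0.07 and Il1rn by 0.05.

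Ifnb1, the gene of interferon beta, lay at 5.96 and 6.33 in unstimulated cells, at 10.12 and 10.08 with LPS and at 6.16 and 6.00 with both agents. The difference from rest was -0.06 (95% interval -0.50 to 0.37). Levels at rest and with both agents were near the lowest called above background, so a difference below that level would not show. By the spline values Ifnb1 differed by 1.03. Of 38 interferon-stimulated genes 8 rose (21.1%, against 6.93% of all genes), 0 fell (against 6.79%) and 30 did not pass. The median was 0.35. Gbp5, a guanylate-binding protein of inflammasome activation, rose most, from 7.42 and 7.27 to 11.24 and 11, by 3.77 ± 0.19 (adjusted p = 8.05e-07). Ifi205, a DNA sensor family member, rose by 1.93 ± 0.20, Ifih1, the RNA sensor MDA5, by 1.25 ± 0.22 and Cmpk2, a nucleotide kinase, by 1.17 ± 0.17. Isg15, the ubiquitin-like modifier, rose by 1.25 ± 0.21, and its call was lost without unstimulated array 2 (1.00). Of the 8 calls, those of Gbp3 and Irgm2 were lost without unstimulated array 1 (0.76 and 0.74) and that of Irf1 without unstimulated array 2 (0.81), Gbp3 also without Dex plus LPS array 1 and Irf1 also without Dex plus LPS array 2 (0.96). Mx1, an antiviral GTPase, lay at 9.02 and 8.87 at rest, at 11.58 and 11.62 with LPS and at 9.29 and 9.68 with both. Ifit2, an antiviral RNA-binding protein gene, lay at 14.05 and 14.20 at rest and at 14.18 and 14.42 with both. Irf7, a driver of type I interferon genes, differed by -0.24, and Irf9 and Stat2, parts of the complex that the interferon receptor activates, by 0.03 and 0.05. None of these 3 passed. With the spline values, 2 of the 38 rose and 1 fell, with a median of -0.13.

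Of 28 inflammatory enzymes and effectors 15 rose (53.6%, against 6.93% of all genes) and 0 fell (against 6.79%), with a median of 1.15. Ptges and Ptgs2, which act in sequence in prostaglandin E2 synthesis, were both high: Ptges rose from 9.04 and 9.11 to 12.83 and 13.05, and Ptgs2, below background at rest, was at least 7.71-fold higher. Slc7a2, an arginine transporter, rose by 3.81 ± 0.16, and Nos2, which makes nitric oxide from arginine, was at least 4.68-fold higher. The cystine transporter Slc7a11 rose by 2.70 ± 0.19. Acute-phase genes that were also high with Dex alone belonged to the same list. Hp, which encodes haptoglobin, lay at 12.71 and 12.88 at rest, at 14.55 and 14.76 with Dex, at 12.92 and 13.27 with LPS and at 15.18 and 15.39 with both. Orm2, an orosomucoid gene, lay at 8.47 and 8.73 at rest, at 10.94 and 10.66 with Dex and at 10.81 and 10.69 with both. Mmp13 and Plaur, a collagenase and the urokinase receptor, did not pass, with differences of 0.39 and 0.18. The call of Mmp14 was lost without unstimulated array 2 (0.93). Of the 28, 6 rose with the spline values.

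NF-kB feedback genes made up the list with the highest median, 1.63. Of 24 tested, 17 rose (70.8%, against 6.93% of all genes), 0 fell (against 6.79%) and 7 did not pass. Of the 17 calls, that of Dusp6, a MAP kinase phosphatase, was lost without any 1 of 6 arrays (0.91 to 1.14). The call of Dusp4, another such phosphatase, was lost without unstimulated array 1 (0.69) or either Dex plus LPS array (1.08 and 1.13), and that of Cish, a cytokine signalling inhibitor, without unstimulated array 2 (0.93) or Dex plus LPS array 1 (0.95). Nfkbia, which encodes the inhibitor that retains NF-kB in the cytoplasm, rose from 11.40 and 11.24 to 13.73 and 13.95, by 2.52 ± 0.17 (adjusted p = 4.11e-06). Tnfaip3, the ubiquitin-editing enzyme A20, rose from 11.45 and 11.78 to 14.03 and 13.99, by 2.40 ± 0.18. Nfkbiz, a nuclear cofactor of secondary response genes, rose by 2.88 ± 0.27 and Socs3, an inhibitor of cytokine receptor signalling, by 2.30 ± 0.24. The MAP kinase phosphatase genes Dusp2, at least 10.3-fold higher, and Dusp16, higher by 2.80 ± 0.17, were in this set. Zfp36, which encodes the mRNA decay factor tristetraprolin, lay at 12.73 and 12.72 at rest and at 12.08 and 12.32 with both agents, a difference of -0.53 that did not reach 2-fold, and at 13.68 and 13.71 with LPS. Rela and Relb, subunits of NF-kB, differed by 0.55 and 0.80 without passing. Of the 24, 17 rose and 1 fell, Dusp6, with the spline values, and Zfp36 differed by 1.73.

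Of 11 immediate-early and AP-1 genes 4 were higher (36.4%, against 6.93% of all genes) and 2 lower (18.2%, against 6.79%). Their median of 0.14 became -0.13 with the authors' processed values. Mycl, a MYC family transcription factor gene below background at rest, was at least 5.12-fold higher, and Egr1 rose by 1.71 ± 0.23. Fos fell from 12.36 and 12.62 to 11.21 and 10.85, and Egr2 fell from 9.33 and 9.18 to 7.71 and 7.48. By the spline values Egr2 was higher by 1.40. Atf3, a stress-induced repressor, differed by -0.43 and Junb by 0.64, and neither passed.

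Of 26 genes known to be induced by glucocorticoids, 9 rose (34.6%, against 6.93% of all genes), 3 fell (11.5%, against 6.79%) and 14 did not pass. Their median was 0.47. Fkbp5 lay at 10.15 and 10.03 with both agents, a rise of 2.98 ± 0.17 (adjusted p = 1.44e-06), below its 11.39 and 11.34 with Dex alone. Per1, a clock gene with a glucocorticoid response, rose by 2.16 ± 0.32, Klf9, a Krüppel-like factor, by 1.66 ± 0.32 and F13a1, a coagulation factor subunit, by 1.81 ± 0.22. Dusp1, the phosphatase that turns off p38, lay at 12.68 and 12.74 at rest, at 14.24 and 14.32 with Dex, at 13.24 and 13.10 with LPS and at 14.59 and 14.78 with both, a rise of 1.98 ± 0.17.

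Tsc22d3, which encodes the glucocorticoid-induced leucine zipper, differed in opposite directions with each agent alone. It lay at 10.96 and 11.04 at rest, at 12.90 and 12.82 with Dex, at 8.35 and 7.91 with LPS and at 11.74 and 11.40 with both, a difference of 0.57 ± 0.20 from rest that did not pass (adjusted p = 0.0572). Mertk, an efferocytosis receptor, lay at 12.01 and 11.99 with Dex but at 10.08 and 10.34 with both agents, beside 10.26 and 10.18 at rest. Rgs2, a regulator of G protein signalling, was at least 2.41-fold lower with both agents, and Sesn1 fell by 1.29. The call of Sesn1 was lost under median scaling, with the authors' processed values, with no background correction and with the spline values. Anxa1, called at -1.03, lost its call without unstimulated array 2 (-0.89) or Dex plus LPS array 2 (-0.82). Of the 26, 1 rose and 1 fell with the spline values, with a median of -0.07, and Fkbp5, Per1 and Tsc22d3 differed by -0.16, -0.47 and -1.83.

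**Figure D3:**
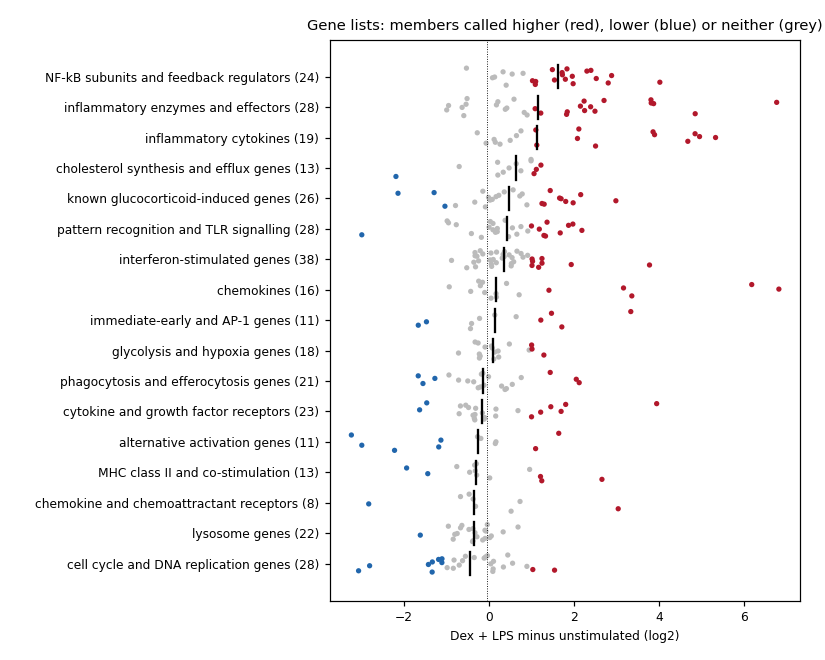
Log2 difference of Dex plus LPS minus unstimulated for each tested member of the 17 gene lists, ordered by median (black bars), with the number tested in brackets and the median of all genes as a dotted line. Medians run from -0.45 for cell cycle genes to 1.63 for NF-kB subunits and feedback regulators.

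Of 28 pattern recognition and Toll-like receptor signalling genes 9 rose (32.1%, against 6.93% of all genes) and 1 fell (3.57%, against 6.79%). Their median was 0.42. Tlr2, the receptor of bacterial lipoproteins, lay at 12.89 and 13.25 at rest, at 13.79 and 13.93 with Dex, at 13.96 and 14.11 with LPS and at 15.05 and 15.04 with both, a rise of 1.97 ± 0.18. Tlr1, its partner, rose by 1.87 ± 0.21 and Tlr6, the alternative partner, by 1.37 ± 0.21. Nlrp3, an inflammasome sensor, was at least 2.71-fold higher. Tlr4, the LPS receptor, differed by -0.95 ± 0.19, short of the 2-fold limit. The call of Tirap, an adaptor, was lost without any 1 of 5 arrays, with 0.39 without unstimulated array 1. Clec7a, which encodes the beta-glucan receptor Dectin-1, dropped from 10.80 and 11.01 to 7.93 and 7.92, a difference of -2.98. Of 21 phagocytosis and efferocytosis genes 3 rose and 3 fell (14.3% each, against 6.93% and 6.79% of all genes). The median of -0.14 became 0.18 under median scaling. The inhibitory Fc receptor gene Fcgr2b rose by 2.12 ± 0.18 and the integrin subunit gene Itgav by 2.05 ± 0.30. Fcgr1, the high-affinity activating Fc receptor gene, fell by 1.55 and Mfge8, a bridging molecule to apoptotic cells, by 1.66. C1qa, C1qb and C1qc, the subunits of complement C1q, differed by -0.25, -0.20 and 0.30 and did not pass. With the spline values 6 recognition genes rose and 0 fell, and 2 phagocytosis genes rose and 0 fell.

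Of 13 antigen presentation and co-stimulation genes 3 rose (23.1%, against 6.93% of all genes) and 2 fell (15.4%, against 6.79%). Their median of -0.29 became 0.04 under median scaling. Cd40 rose from 11.93 and 11.89 to 14.47 and 14.66, by 2.66 ± 0.19, and Cd274, the checkpoint ligand PD-L1, by 1.24 ± 0.18. Cd86, a co-stimulatory ligand of T cells, fell from 11.40 and 10.99 to 9.76 on each array, whereas the other ligand of the same receptors, Cd80, rose by 1.21 ± 0.21. H2-DMa, a peptide loading chaperone subunit of class II molecules, fell by 1.93. With the spline values 1 of the 13 rose and 0 fell, with a median of 0.30. Of 11 alternative activation genes 2 rose (18.2%, against 6.93% of all genes) and 5 fell (45.5%, against 6.79%). These counts were 1 and 0 with the spline values, and 2 and 3 with no background correction or with the authors' processed values. The call of Klf4, a Krüppel-like factor, was lost without unstimulated array 2 (-0.66) or either Dex plus LPS array. Tgm2, transglutaminase 2, rose by 1.64 ± 0.16, and Cd200r1, an inhibitory receptor, was at least 3.66-fold lower. Chil3 was called higher at 1.10, but not without unstimulated array 1 (0.79) or Dex plus LPS array 1 (0.98). Mrc1, the mannose receptor, differed by -0.27.

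Of 28 cell cycle genes 8 fell (28.6%, against 6.79% of all genes), 2 rose (7.14%, against 6.93%) and 18 did not pass. The median of -0.45 stayed negative at -0.12 under median scaling, with 5 lower and 3 higher. Ccnd1, the D-type cyclin of the growth factor response, fell from 9.54 and 9.61 to 6.46 and 6.57, a difference of -3.06, and Ccnd2, another D-type cyclin below background at rest, was at least 2.07-fold higher. Cdkn1c, a cyclin-dependent kinase inhibitor, lay at 13.51 and 13.29 at rest, at 10.65 and 11.03 with Dex, at 12.54 and 12.34 with LPS and at 10.49 and 10.70 with both. The replication licensing gene Cdt1 fell by 1.42, and Mcm2 and Mcm6, subunits of the replicative helicase, fell by 1.33 and 1.18. The calls of Mcm2 and Mcm6 were lost with the authors' processed values and with the spline values. That of Mcm2 was also lost with no background correction, and that of Mcm6 under median scaling. The call of Ccne1, the other cyclin that rose, was lost without unstimulated array 2 (0.77) or Dex plus LPS array 2 (0.72), and that of Kif23 without unstimulated array 2 (-0.75) or either Dex plus LPS array. Pcna, called at -1.10, lost its call without Dex plus LPS array 2 (-0.79), under median scaling, with the authors' processed values and with no background correction. With no background correction 4 of the list fell and 0 rose, and with the spline values 1 fell.

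Of 18 glycolysis and hypoxia genes 3 rose (16.7%, against 6.93% of all genes) and 0 fell (against 6.79%), with a median of 0.10. Hif1a, the hypoxia-inducible factor subunit, rose by 1.29 ± 0.18. The other called members, Pfkl and Slc16a3, lost the call without unstimulated array 2 (0.92) and unstimulated array 1 (0.92), respectively, and without Dex plus LPS array 1 (0.97 and 0.95), Slc16a3 also without Dex plus LPS array 2. With no background correction 1 of the 18 rose, and with the spline values 0. Of 13 cholesterol genes 3 rose (23.1%, against 6.93% of all genes) and 1 fell (7.69%, against 6.79%), with a median of 0.64. The same counts were 6 and 1 under median scaling, 1 and 1 with no background correction, and 0 and 0 with the spline values, where the median was 0.09. Lss, lanosterol synthase, rose by 1.22 ± 0.18, and Abcg1, a cholesterol exporter, was below background with both agents and at least 2.70-fold lower. Idi1 and Cyp51, the other called enzymes, at 1.12 and 1.06, each lost the call without some arrays: Idi1 without unstimulated array 1 (0.93) or Dex plus LPS array 1 (0.98), and Cyp51 without unstimulated array 2 (0.93) or Dex plus LPS array 2 (1.06). Of 22 lysosome genes 0 rose and 1 was lower (4.55%, against 6.79% of all genes), with a median of -0.35. That gene was Ctsk, which encodes a collagen-degrading cathepsin, with a difference of -1.61.

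Among genes that LPS alone raised (652 genes, 8.36%), those nearest to the unstimulated level with both agents were Sp140, Mov10, Slfn4, Apol9b, Ccl12, Ifnb1, Clec2d and Akap7. They were picked for this closeness, and the LPS and Dex plus LPS comparisons share the unstimulated arrays, so their levels are a description. Sp140, a nuclear body protein gene, lay at 9.70 and 9.24 at rest, at 11.06 and 10.83 with LPS and at 9.45 and 9.49 with both, a difference of 0.00 from rest (95% interval -0.48 to 0.48). Ccl12, a monocyte chemokine of mice, lay at 10.34 and 10.19 at rest, at 11.53 and 11.84 with LPS and at 10.43 and 10.20 with both (interval -0.36 to 0.46). Apol9b, an interferon-inducible apolipoprotein L gene, lay at 9.69 and 9.53 at rest, at 8.25 and 7.76 with Dex, at 11.02 and 11.22 with LPS and at 9.59 and 9.72 with both. Slfn4 was not above background in either group of the comparison. Ifnb1 had the largest distance of the 8 between its level with LPS and with both agents, a difference of -4.02. Its levels at rest and with both agents were near background.

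The 8 genes that LPS lowered (679 genes, 8.71%) and that lay nearest to rest with both agents were Tia1, Tnfsf13b, Slc7a6, Ppargc1b, Mctp1, Ccdc66, Them6 and Cnpy3. Tnfsf13b, the B cell survival factor BAFF, lay at 9.83 and 9.32 at rest, at 8.40 and 8.45 with LPS and at 9.48 and 9.60 with both (interval -0.55 to 0.49). Tia1, an RNA-binding protein of stress granules, lay at 6.97 and 7.33 at rest, below background with LPS and at 7.08 and 7.28 with both (interval -0.40 to 0.46). Ppargc1b, a coactivator of mitochondrial genes, lay at 8.01 and 8.72 at rest, at 9.34 and 9.23 with Dex, at 6.72 and 6.79 with LPS and at 8.10 and 8.52 with both. Intervals for the other genes of these 16 stayed within -0.86 and 0.67. They bound the net difference and do not show that the levels were equal.

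**Figure D4:**
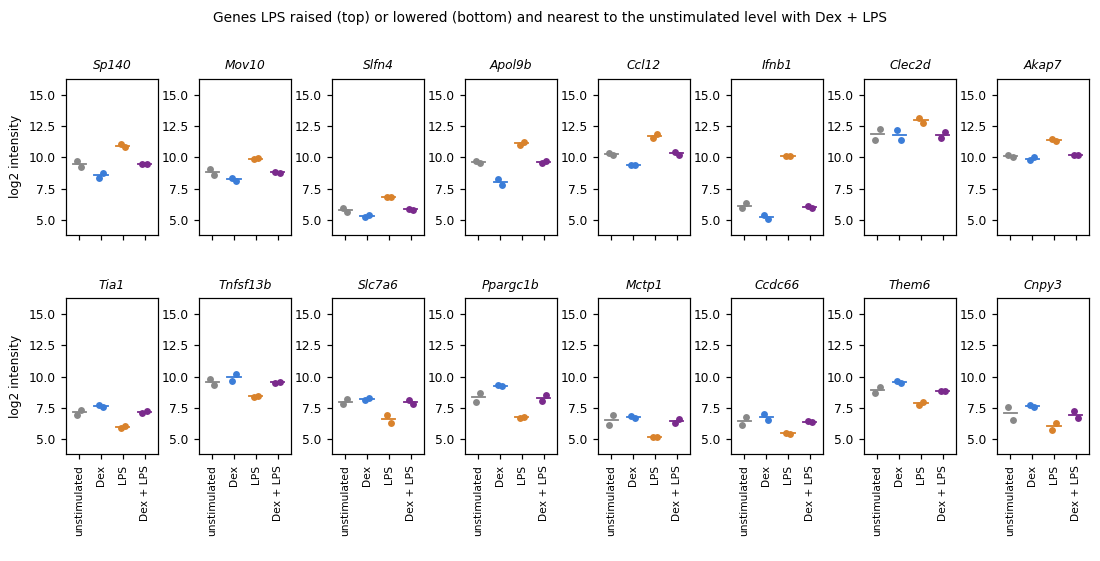
Normalized log2 intensity on each of the 8 arrays (points) with group means (bars) for 8 genes raised (top) and 8 lowered (bottom) by LPS. Ifnb1 stands at 10.12 and 10.08 with LPS. With Dex plus LPS it stands at 6.16 and 6.00, beside 5.96 and 6.33 in unstimulated cells, all near background.

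Some genes reached a level with both agents that neither agent gave alone. Called higher with Dex plus LPS than in each of the other 3 groups were 17 genes (0.218%), and called lower than in each were 21 (0.269%). Against LPS alone 1.33% of all genes were higher and 2.46% lower with both agents, and against Dex alone 6.76% were higher and 6.73% lower. Ptx3 led the first set: it was below background with Dex, lay at 8.67 on each LPS array, and was higher by 2.89 with both agents than with LPS (adjusted p = 2.24e-05). Trem1 lay at 6.87 and 6.56 with LPS and at 8.97 and 9.36 with both, a difference of 2.45 between these groups. Rgcc, a regulator of the cell cycle, lay at 8.32 and 8.49 at rest, at 8.03 and 8.31 with Dex, at 8.78 and 8.72 with LPS and at 10.59 and 10.87 with both. Jdp2, an AP-1 repressor gene, lay at 9.07 and 8.94 at rest, at 11.30 and 10.94 with Dex, at 10.90 and 10.82 with LPS and at 12.21 and 12.38 with both.

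Aph1b, a gamma-secretase subunit gene, rose by 2.19 ± 0.24 over rest, and Gpt2, an alanine aminotransferase gene, by 1.18 ± 0.19. Adarb1, an RNA-editing enzyme gene, and Pde4d, a cAMP phosphodiesterase gene, were not above background in the other 3 groups. Both therefore entered the tested set only through the arrays with both agents, and such a filter favours a call above the other groups. They lay at 7.22 and 7.13 and at 6.44 and 6.97 with both agents. Pde4d was so close to background there that a 2-fold difference is not certain. Both lost the call over rest with no background correction or the authors' processed values, and Pde4d also with a background offset of 50. The other 9 were Fndc7, Dgat2, Rdh12, D16Ertd472e, Rhob, Net1, Pik3r3, Scd2 and Tlr2.

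In the lower set, Sirpb1a, a signal-regulatory protein gene of myeloid cells, lay at 14.04 and 13.97 at rest, at 12.81 and 13 with Dex, at 13.03 and 12.81 with LPS and at 11.14 and 10.89 with both. Clec7a lay at 10.80 and 11.01 at rest, at 9.07 and 9.27 with Dex, 9.49 and 9.53 with LPS and 7.93 and 7.92 with both. Rin2, a Rab5 exchange factor gene, and Mllt3, a chromatin reader gene, overlapped between the other 3 groups and fell with both agents by 1.51 and 1.46 from rest. Flrt3, Mtus1, Kif5c and Tbc1d9 complete the 8 with the largest differences. The remaining 13 were Emp1, Rpl7a, Klf4, Fgfbp3, Hpse, Nr1d2, Evi2, Flrt2, H1f2, Hhex, Fcgr1, Acss1 and Zranb3. Of these, Klf4 (-1.13 from rest) lost its call without unstimulated array 2 (-0.66) or either Dex plus LPS array, and Rpl7a (-1.36) without Dex plus LPS array 2 (-0.92).

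The counts of 17 and 21 rest on few arrays. They were 10 and 12 without LPS array 1, 10 and 8 without LPS array 2, 8 and 12 without Dex plus LPS array 1, and 9 and 8 without Dex plus LPS array 2. Of the 16 genes named first, the calls against LPS of Mllt3, Rin2, Aph1b, Gpt2, Pde4d and Tbc1d9 were each lost without at least 1 of these 4 arrays. In the spline table the counts were 0 and 0. Ptx3 and Trem1 differed there by -0.08 and -0.16 between both agents and LPS alone.

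**Figure D5:**
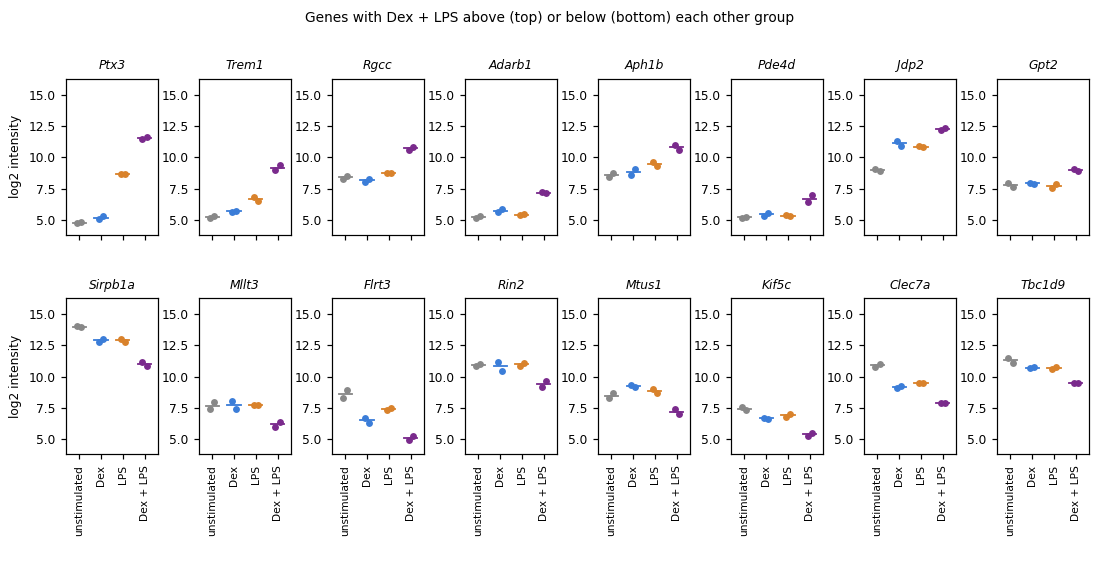
Normalized log2 intensity on each of the 8 arrays (points) with group means (bars) for the 8 genes furthest above (top) and below (bottom) each other group with Dex plus LPS. Rgcc stands at 10.59 and 10.87 with both agents and at no more than 8.78 elsewhere, and Clec7a at 7.93 and 7.92 against no less than 9.07.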

How the data were processed

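The 8 arrays of the 6 h experiment were Illumina mouse bead arrays of 25697 probes. Their unnormalized signal intensity and the detection p-value of each probe were deposited by the authors, made with GenomeStudio per the submitters' processing notes. Also deposited were a table of intensity after the authors' cubic spline normalization and a table of processed log2 values. Both were used as alternatives, with no background correction. Labels put 2 arrays in each group. Another 48 columns of samples were not used.

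Background was corrected with normexp (offset 16, control level inferred from detection p-values), and arrays were quantile normalized and tested in limma 3.58.1 (R 4.3.3) over all 8 arrays with Benjamini-Hochberg adjustment. Probes needed a detection p-value under 0.05 on both arrays of a group, and each gene was represented by its detected probe of highest mean level across the 16 arrays. The 3 h arrays served only for that choice. A group was saturated at 80% of the array's highest signal, and a gene dim or saturated throughout a group was given as a bound. Intervals are 95% and not adjusted. The number of arrays limits the precision.

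Named were the 15 largest rises and falls among called genes whose arrays did not overlap between the groups. Up to 6 called members of each list and direction were also named, with members that did not pass. So were the 8 nearest to rest among genes LPS raised or lowered, and the 8 furthest above or below each other group. Other named genes (such as Csf1, Nos2, Slc7a11, Hp and Orm2) were chosen after their values were seen. Members and lists were chosen with earlier results of these data known. Promoters came from RefSeq (GRCm38.p6). The procedure was tested on simulated data. Figures were drawn with matplotlib 3.10.9.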

Additional observations from a re-analysis of the deposited data

How the results depend on the processing

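Counts of genes higher, lower, above each and below each other group were 540, 529, 17 and 21. They became 968, 303, 28 and 14 with median scaling, 164, 33, 0 and 0 with the spline table, 350, 280, 5 and 5 with the authors' processed values, 325, 287, 5 and 5 with no background correction, and 1112, 1233, 52 and 63 with no minimum fold. With a normexp offset of 50 they were 439, 416, 10 and 14. With all probes, a detection p-value under 0.01, another probe per gene or only the 4 arrays, the counts stayed within 1.5 times of these, the last giving no value above or below each group. Leaving out 1 array gave 489 to 595, 489 to 561, 8 to 17 and 8 to 25. The replicate number as a block gave 539, 528, 16 and 20, and the deviations of same-numbered arrays correlated at -0.22 to 0.01, so the numbers were not taken as pairs. Of 176 called genes among those named or listed, 151 kept the call without each of the 8 arrays in turn and 49 kept it under each of the 11 other settings. In the spline table these differences from rest took the other sign: Adarb1 -0.10, Anxa1 0.11, Ccne1 -0.18, Cmpk2 -0.32, Dcn -0.012, Ddit4 -0.031, Dusp6 -1.58, Egr2 1.40, Errfi1 1.05, Evi2 0.14, Fkbp5 -0.16, Flrt3 2.35, Gpt2 -0.092, Ifnb1 1.03, Il1r2 -0.070, Il1rn 0.049, Irgm2 -0.40, Klf9 -0.66, Ltf 0.080, Pde4d -0.024, Per1 -0.47, Pik3r3 -0.18, Prtn3 0.084, Scd2 -0.19, Tbc1d9 0.069, Tgfbr1 -0.43, Tsc22d3 -1.83 and Zfp36 1.73. Against LPS they were Ptx3 -0.083, Trem1 -0.16, Adarb1 -0.066, Sirpb1a 0.00038, Kif5c 0.037 and Tbc1d9 0.14, and against Dex Gpt2 -0.17, Flrt3 2.29, Clec7a 0.055 and Tbc1d9 0.25. Csf3 was -0.39 with the probe brightest over the 8 arrays. The cause of these differences was not tested.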
